A study of Mus musculus with 48 samples.

Results

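The 9 genes described here are a set of Wnt feedback and TCF genes of the mouse: Notum, Axin2, Nkd1, Sp5, Lef1, Tcf7, Tcf7l1, Tcf7l2 and Ctnnb1. They were taken by gene symbol from a count table of 20171 genes, in all 48 libraries, to ask whether other Wnt genes follow Notum, which was seen to be higher in Ago2 knockout lysates. The set was thus selected on the measured counts of Ago2 knockout against Tnrc6a-tagged lysates, and values of that comparison are given as a description without a test. The Tnrc6a-tagged lysates also serve as reference for the Upf1 knockout and untagged lysates. Tests of those comparisons are therefore not independent of the choice. RNA was sequenced from cleared lysates (inputs) and from RNA recovered on HA magnetic beads (immunoprecipitates, IPs), and all 9 genes passed the filter on low counts in each comparison.

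All cells were 129S6/SvEvTac mouse embryonic stem cells with the yGlob GFP_5xT71BS reporter and a stable FLAG-Cas9::T2A::Blasticidin transgene, grown in serum with LIF. The 4 genotypes were untagged parental cells, HA-Tnrc6a cells (an HA-AVI tag on the endogenous Tnrc6a gene, whose product is a GW182 scaffold protein of microRNA silencing), HA-Tnrc6a Ago2-/- cells and HA-Tnrc6a Upf1-/- cells. Ago2 is an Argonaute protein that carries microRNAs, and Upf1 is the helicase of nonsense-mediated mRNA decay. Each genotype gave 6 inputs and 6 IPs from dishes of a line whose number of clones the labels do not state, so p-values measure the spread between these libraries, which may be technical.

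Libraries were numbered within each genotype and fraction, and the first 3 and last 3 formed separate sets. Total counts were 15383953 to 19595405 in inputs and 11471544 to 18344233 in IPs of the first set, and 26458831 to 37179105 and 25724085 to 73845953 in the second. The column names do not say which of the labelled experiments each set belongs to, so the sets were treated as batches and are shown separately. Ago2 mRNA was 92.8 to 136 CPM (counts per 1000000 counts of a library, after scaling) in Ago2 knockout inputs against 205 to 323 CPM in HA-Tnrc6a inputs. Upf1 mRNA was not lower in the inputs labelled Upf1 knockout, at 122 to 142 CPM against 74.4 to 99.6 CPM, and the labels do not say where the gene was cut. These libraries are called Upf1-labelled below. Tnrc6a mRNA itself was at 7686 to 58807 CPM in the IPs of tagged cells against 56.6 to 105 CPM in untagged IPs. The 8 embryonic stem cell markers checked were present in every genotype. In inputs they summed to 5925 to 6929 CPM in untagged, 6370 to 6481 CPM in HA-Tnrc6a, 6639 to 7133 CPM in Ago2 knockout and 5585 to 5782 CPM in Upf1-labelled cells, and the last 3 ranges did not overlap.

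Secreted Wnt proteins bind Frizzled and LRP receptors and thereby stop a cytosolic destruction complex from degrading beta-catenin. Stabilised beta-catenin then enters the nucleus and acts with TCF/LEF DNA-binding proteins on target genes, several of which encode inhibitors that dampen the pathway. In embryonic stem cells Tcf7l1 is known as a repressor of pluripotency genes whose action beta-catenin relieves. In bulk RNA, a change in the share of cells of one type and a change of RNA per cell cannot be told apart.

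Notum lies at chr11:120653788-120661193, Axin2 at chr11:108917828-108950783, Lef1 at chr3:131110297-131224357 and Sp5 at chr2:70474923-70477726 in the RefSeq annotation of GRCm38.p6. Tcf7 is at chr11:52246527-52283383, Tcf7l1 at chr6:72626371-72789045, Tcf7l2 at chr19:55741797-55933659, Nkd1 at chr8:88521342-88594887 and Ctnnb1 at chr9:120933400-120960507. No gene of that reference overlapped Notum, Axin2, Nkd1, Sp5 or Lef1. Notumos, by its name an opposite-strand transcript of Notum, was not among the overlaps found there and is described at the end. Reads of Tcf7 could be shared with the overlapping gene Skp1, those of Ctnnb1 with Mir7090, those of Tcf7l2 with Gm31734 and those of Tcf7l1 with 4 predicted genes, because the counting rule for overlaps and strand is not given in the sources used here.

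Start-site windows of 3 genes are shown because Sp5, Lef1 and Axin2 are known Wnt targets whose values in Ago2 knockout cells are compared with Notum below. Each runs from 250 bases before to 50 bases after a RefSeq start on the plus strand of GRCm38.p6. Capitals mark matches, on either strand, to the TCF/LEF motif CTTTGAA or its variants CTTTGAT, or CTTTGTA, or CTTTGTT.
Sp5, chr2:70474673-70474972: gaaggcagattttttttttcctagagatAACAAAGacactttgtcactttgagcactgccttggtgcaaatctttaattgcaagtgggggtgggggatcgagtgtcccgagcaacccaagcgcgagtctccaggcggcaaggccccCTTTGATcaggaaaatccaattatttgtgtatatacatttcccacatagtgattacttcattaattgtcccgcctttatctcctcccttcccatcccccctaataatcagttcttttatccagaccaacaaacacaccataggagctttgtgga
Lef1, chr3:131110047-131110346: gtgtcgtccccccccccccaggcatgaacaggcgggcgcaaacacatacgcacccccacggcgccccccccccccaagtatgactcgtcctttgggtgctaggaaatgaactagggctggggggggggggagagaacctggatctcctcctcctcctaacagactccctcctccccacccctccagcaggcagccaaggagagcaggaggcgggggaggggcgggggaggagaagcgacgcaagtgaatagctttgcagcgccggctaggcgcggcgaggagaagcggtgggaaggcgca
Axin2, chr11:108920099-108920398: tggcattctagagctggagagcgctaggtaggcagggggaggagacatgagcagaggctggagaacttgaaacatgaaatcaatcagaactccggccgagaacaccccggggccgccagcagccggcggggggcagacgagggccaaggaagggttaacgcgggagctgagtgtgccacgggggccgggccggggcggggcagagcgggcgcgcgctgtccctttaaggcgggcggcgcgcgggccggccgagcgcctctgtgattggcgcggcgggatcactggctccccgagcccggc
The Sp5 window held 2 matches: CTTTGTT on the reverse strand at bases 29 to 35 and CTTTGAT at bases 147 to 153. The Lef1 and Axin2 windows printed held none of these letters. The Axin2 window lies inside the gene as placed above, and no window at the annotated 5' end of Axin2 was searched. RefSeq gave 14 windows for 8 of the genes, and 3 of the 14 held a match, the others being at a later Lef1 start (chr3:131156044-131156343) and a later Tcf7l2 start (chr19:55895071-55895370). Over all 32851 windows of this length, 16.9% held at least 1 match and 1.94% held 2 or more. A match describes letters and not a bound site.

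Per length of transcript, Ctnnb1 was the highest of the 9 genes in the inputs and Sp5 the lowest. Mean levels over the 24 inputs, in CPM per kilobase, were 120 ± 13.7 (SD) for Ctnnb1, 20.3 ± 3.50 for Tcf7 and 10.1 ± 1.54 for Tcf7l1. They were 5.00 ± 3.98 for Notum, 1.87 ± 0.348 for Axin2, 1.38 ± 0.440 for Tcf7l2, 0.990 ± 0.983 for Lef1, 0.691 ± 0.211 for Nkd1 and 0.256 ± 0.197 for Sp5. From Tcf7l1 down to Nkd1, neighbours in this order had overlapping ranges of mean ± SD, whereas Ctnnb1 and Tcf7 stood above the next gene and Sp5 below it. Sp5 rested on 3 to 41 counts per input, and its values are correspondingly imprecise.

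Notum encodes a secreted carboxylesterase that removes the lipid from Wnt proteins. In HA-Tnrc6a inputs Notum was at 8.95, 10.2 and 7.29 CPM in the first set and 12.2, 11.7 and 9.33 CPM in the second. In Ago2 knockout inputs it was at 23.4, 25.7 and 23.8 CPM and at 33, 28.8 and 30.8 CPM. Every Ago2 knockout input lay above every input of the other genotypes. The log2 difference from HA-Tnrc6a was 1.48 ± 0.07 (SE), with 1.47 in the first set and 1.48 in the second.

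Lef1, a TCF/LEF factor that is itself a Wnt target, was the gene next to Notum in size in that contrast. Its HA-Tnrc6a inputs were at 14.1, 14.1 and 16.8 CPM in the first set but 3.34, 2.5 and 1.89 CPM in the second. Its Ago2 knockout inputs were at 23.4, 27.3 and 30.3 CPM and at 4.66, 4.46 and 3.44 CPM. Within each set the Ago2 knockout inputs lay above the HA-Tnrc6a inputs, although every first-set input lay above every second-set input. The log2 difference was 0.76 ± 0.10, and it was 0.84 and 0.69 in the first and second set.

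Sp5 encodes a zinc-finger factor induced by Wnt signalling. Its HA-Tnrc6a inputs were at 0.709, 0.339 and 0.863 CPM and at 0.398, 0.447 and 0.838 CPM. Its Ago2 knockout inputs were at 1.92, 1.13 and 0.606 CPM and at 0.976, 0.657 and 0.713 CPM. The genotypes overlapped in both sets, and the log2 difference was 0.70 ± 0.28.

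Axin2 and Nkd1, feedback inhibitors that act on the destruction complex and on Dishevelled, were not higher in the Ago2 knockout inputs. Axin2 was at 11.5, 11.2 and 11.5 CPM in the first-set HA-Tnrc6a inputs and at 12.5, 11.9 and 10.7 CPM in the Ago2 knockout inputs, which overlapped. In the second set HA-Tnrc6a inputs were at 11, 9.48 and 10.1 CPM and Ago2 knockout inputs at 6.62, 7.37 and 8.7 CPM, without overlap. The log2 difference of Axin2 was therefore 0.04 in the first set, -0.43 in the second and -0.20 ± 0.08 on average. Nkd1 overlapped in both sets, at 2.49 to 4.8 CPM against 2.28 to 4.9 CPM, with a log2 difference of -0.02 ± 0.13.

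Among the other factors, Tcf7 and Tcf7l1 were each 0.26 higher on the log2 scale in Ago2 knockout inputs, with SEs of 0.03 and 0.04. For Tcf7, 67.3, 67 and 63 CPM became 75.4 to 78.5 CPM in the first set, and 49.5 to 54.9 CPM became 61.4 to 64.9 CPM in the second, without overlap in either set. For Tcf7l1, 31.7 to 33.1 CPM compared with 37 to 43.4 CPM, and 39.3 to 41.8 CPM with 45.5 to 48.4 CPM, again without overlap within a set. Tcf7l2, a further family member, differed by -0.14 ± 0.08 and Ctnnb1, which encodes beta-catenin, by -0.08 ± 0.03.

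In this contrast, 6 of the 9 genes were past an adjusted p of 0.05, 4 higher and 2 lower, where 30.9% of all genes tested were past it, 15.7% higher and 15.2% lower; because the contrast chose the genes, nothing is read from that count. The median log2 difference of the 9 genes was 0.26 against -0.01 over all genes tested, and for the same reason nothing is read from it. Markers of primitive endoderm, all 6 of 6 detected, moved in the same libraries: they summed to 6.84 to 9.44 CPM in Ago2 knockout inputs against 32.1 to 37 CPM in HA-Tnrc6a inputs, with a median log2 difference of -2.76. All 4 of the 4 neural markers in the table were higher and all 4 of the 4 fibroblast markers lower, with median log2 differences of 0.45 and -0.48. Of the 8 embryonic stem cell markers 5 were past the threshold higher and 1 lower, with a median log2 difference of 0.11, and trophoblast markers summed to 11.6 to 15 CPM against 15.4 to 18.5 CPM. Primitive streak and mesoderm markers summed to 7.48 to 9.29 CPM in Ago2 knockout and 7.31 to 9.82 CPM in HA-Tnrc6a inputs, which overlapped. The part of these cell types in the values of the 9 genes was not tested.

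**Figure D1:**
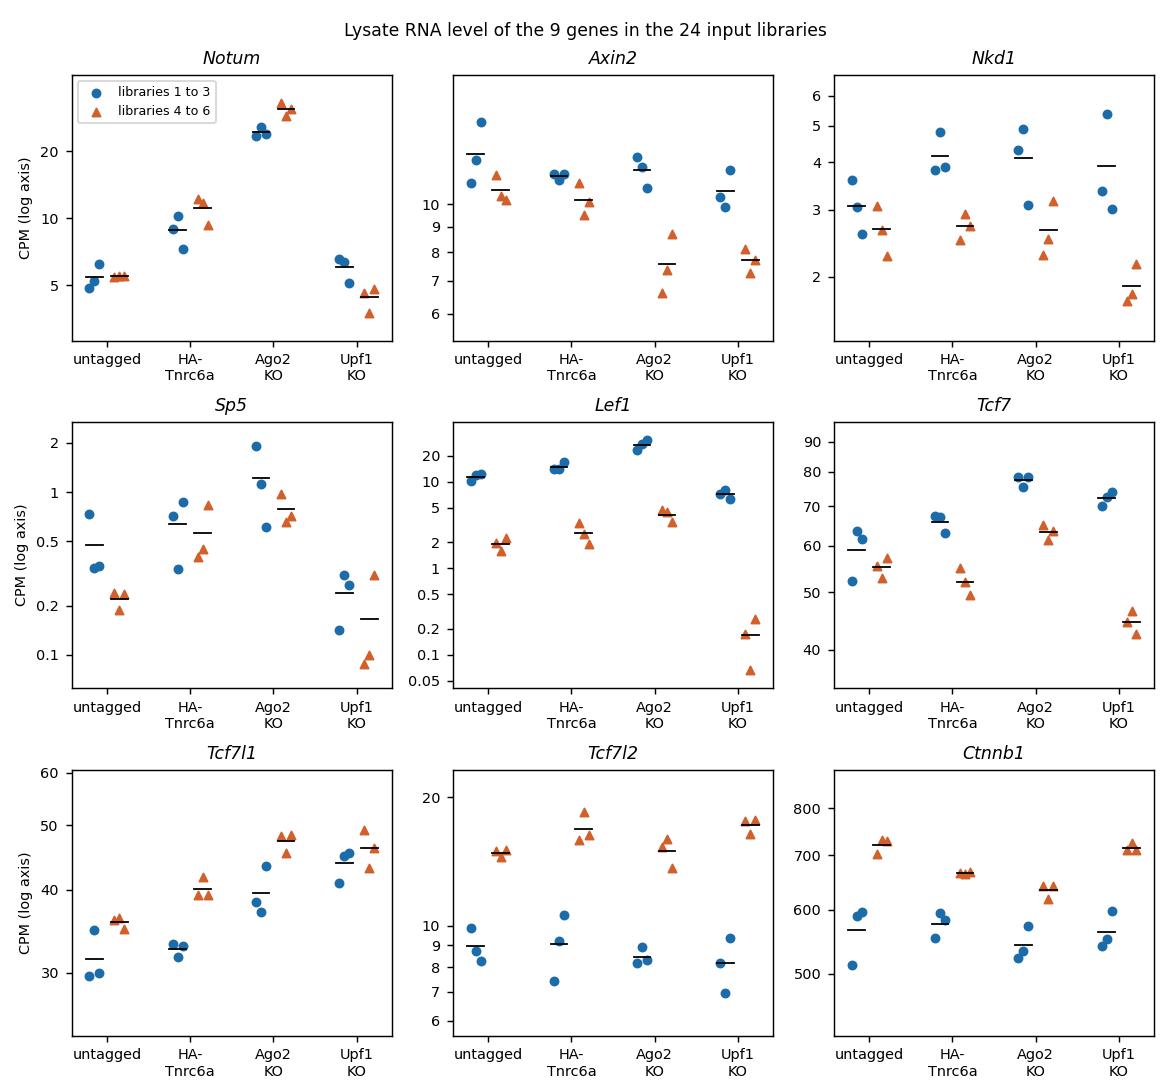
CPM of each gene (log axes) in the 24 inputs by genotype, with 1 point per library, circles for libraries 1 to 3, triangles for libraries 4 to 6 and bars at the mean of each 3. Notum was highest in every Ago2 knockout input, and Lef1 was lower in the second set in all 4 genotypes and lowest in its Upf1-labelled inputs.

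**Figure D2:**
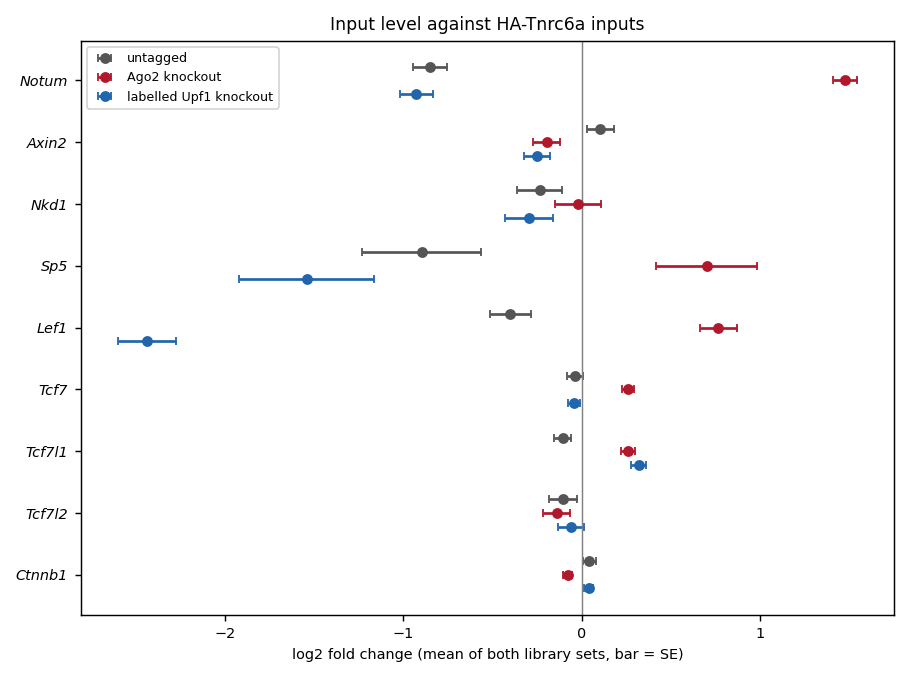
Log2 fold change of each gene against HA-Tnrc6a inputs (x axis, mean of both sets, bars are SE) for untagged, Ago2 knockout and Upf1-labelled inputs, 6 libraries each. Notum and Lef1 lay to the right in Ago2 knockout inputs and to the left in the other genotypes.

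The bead libraries of the same lysates were not used in choosing the genes, though they are not independent of the inputs. Notum was higher in the IPs of Ago2 knockout cells, as was Lef1. Notum was at 12.7, 12.6 and 11.6 CPM in the first-set HA-Tnrc6a IPs and 27.4, 31.3 and 29.6 CPM in the Ago2 knockout IPs. In the second set it was at 19.2, 20.4 and 21.8 CPM and at 53.3, 62.1 and 61.4 CPM. The groups did not overlap in either set, and Notum rose by a log2 fold change of 1.42 ± 0.07 (edgeR quasi-likelihood test, adjusted p = 9.5e-13).

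Lef1 was at 32.5, 33.7 and 29.9 CPM in HA-Tnrc6a and 53.8, 49.2 and 54.8 CPM in Ago2 knockout IPs of the first set. The second set had 5.64, 4.9 and 4.2 CPM and 10.2, 7.89 and 9.25 CPM, so the genotypes were apart within each set. Its log2 fold change was 0.83 ± 0.08 (adjusted p = 1.44e-08). Sp5 went from 1.36 to 1.48 CPM to 1.76 to 2.23 CPM in the first set and from 0.665 to 1.19 CPM to 1.88 to 2.66 CPM in the second. These groups were apart as well, with a log2 fold change of 0.91 ± 0.19 (adjusted p = 0.000428), which was 0.47 in the first set and 1.36 in the second.

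Tcf7l2 fell in the same IPs by a log2 fold change of -0.27 ± 0.07 (adjusted p = 0.00462) and Nkd1 by -0.38 ± 0.13 (adjusted p = 0.0221). The Nkd1 call was lost without HA-Tnrc6a IP 1, 2 or 4 or without Ago2 knockout IP 2, with adjusted p-values of 0.0556, 0.0512, 0.0549 and 0.0599. With a single set, Sp5 did not pass in the first (adjusted p = 0.309), Tcf7l2 did not in the second (adjusted p = 0.183) and Nkd1 did in neither (adjusted p = 0.263 and 0.0545). Axin2 was 0.18 ± 0.07 higher and did not pass (adjusted p = 0.0507). It passed with the first set alone (adjusted p = 0.00807), with no count filter (adjusted p = 0.045) and without Ago2 knockout IP 2 or 4 (adjusted p = 0.0381 and 0.0253). Its sets differed in sign, at 0.47 and -0.11: first-set IPs were at 15.3 to 16.5 CPM in HA-Tnrc6a and 20 to 23.1 CPM in Ago2 knockout cells, while second-set IPs were at 16.6 to 17.5 CPM and 13.8 to 17.1 CPM and overlapped.

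Tcf7, Tcf7l1 and Ctnnb1 did not pass in the IPs, with adjusted p-values of 0.44, 0.387 and 0.956 and log2 differences of 0.06 ± 0.06, -0.07 ± 0.06 and 0.01 ± 0.08. Thus 5 of 9 genes passed in the IPs, 3 higher and 2 lower, where 39.7% of all genes tested passed, 20.8% higher and 19% lower. Their median log2 difference was 0.06 and that of all genes was -0.01. All 6 primitive endoderm markers were lower in these IPs too, with a median log2 difference of -2.36. Of the neural markers 3 of 4 were higher (median 0.55), and of the embryonic stem cell markers 5 of 8 were higher and none lower (median 0.22). The part of these markers in the result was not tested.

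**Figure D3:**
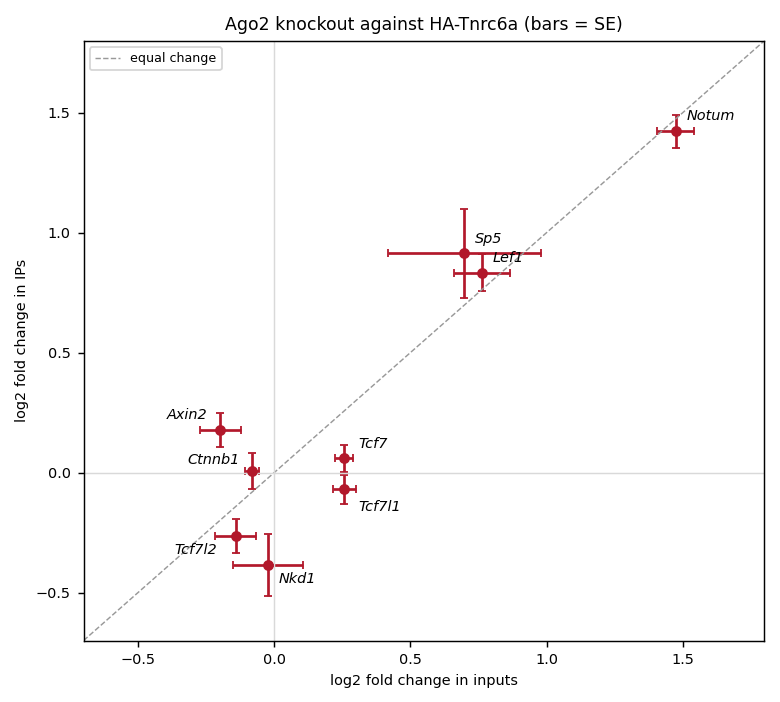
Log2 fold change of Ago2 knockout against HA-Tnrc6a in inputs (x axis) and IPs (y axis) for the 9 genes, bars are SE and the dashed line marks equal change. Notum, Lef1 and Sp5 lay near the line at the upper right, while Tcf7 and Tcf7l1 were at 0.26 each in inputs and at 0.06 and -0.07 in IPs.

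In the Upf1-labelled inputs, Lef1, Sp5, Notum and Axin2 fell and Tcf7l1 rose against HA-Tnrc6a inputs. Lef1 was at 7.29, 8.15 and 6.26 CPM in the first set and 0.175, 0.0666 and 0.261 CPM in the second, the last resting on as few as 2 counts. All Upf1-labelled inputs lay below the HA-Tnrc6a inputs of their set. The log2 fold change was -2.44 ± 0.16 (adjusted p = 4.87e-17), at -1.07 in the first set and -3.81 in the second. The difference between the sets, -2.74 ± 0.35, was itself past the threshold (adjusted p = 1.81e-07).

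Notum was at 6.53, 6.35 and 5.13 CPM and at 4.61, 3.76 and 4.81 CPM in Upf1-labelled inputs, below HA-Tnrc6a in both sets. It fell by a log2 fold change of -0.93 ± 0.09 (adjusted p = 6.63e-12), at -0.55 and -1.30 in the first and second set. The set difference of -0.75 ± 0.19 passed (adjusted p = 0.00441). Sp5 was at 0.142, 0.31 and 0.27 CPM and at 0.0876, 0.0999 and 0.308 CPM, below HA-Tnrc6a in both sets, and its log2 fold change was -1.54 ± 0.38 (adjusted p = 0.000495).

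Axin2 was at 10.3, 9.86 and 11.7 CPM in the first Upf1-labelled set, overlapping HA-Tnrc6a, and at 8.12, 7.26 and 7.7 CPM in the second, below it. It fell by -0.25 ± 0.07 (adjusted p = 0.00228), and with the first set alone the value was -0.11 and did not pass (adjusted p = 0.412). Tcf7l1 was at 41, 45 and 45.5 CPM and at 49.3, 43.1 and 46.3 CPM, above HA-Tnrc6a in both sets, and rose by 0.32 ± 0.04 (adjusted p = 2.24e-09).

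Nkd1 was 0.29 ± 0.13 lower and missed the threshold (adjusted p = 0.0563), which it passed without Upf1-labelled input 2 or 6 or HA-Tnrc6a input 4 (adjusted p = 0.00533, 0.0351 and 0.0484). It also passed with RLE factors, with a replicate block and with the second set alone (adjusted p = 0.0486, 0.0335 and 0.0212). Tcf7 differed by -0.05 ± 0.03 on average (adjusted p = 0.25) with opposite signs in the sets, 0.12 and -0.22, and their difference of -0.34 ± 0.07 passed (adjusted p = 0.000289). Tcf7l2 and Ctnnb1 did not pass (adjusted p = 0.503 and 0.18). Ctnnb1 did pass with scaling by library totals, at 0.08 (adjusted p = 0.00413), and with the second set alone, at 0.12 (adjusted p = 0.000251). The Ctnnb1 sets differed by 0.16 ± 0.05 (adjusted p = 0.0236). The last call was lost without HA-Tnrc6a input 2 or Upf1-labelled input 1, 2 or 5 (adjusted p = 0.0982, 0.0975, 0.0786 and 0.0566), with scaling by library totals (adjusted p = 0.103) and with all 48 libraries in 1 fit (adjusted p = 0.729).

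In this comparison 5 of 9 genes passed, 1 higher and 4 lower, where 58.6% of all genes tested passed, 29.5% higher and 29% lower, so the share was near the background. The median log2 difference of the 9 was -0.25 and that of all genes -0.02. For the difference between sets 4 of 9 passed against 11.6% of all genes tested. Primitive endoderm markers also differed between the sets: they summed to 13.1 to 15.6 CPM in the first Upf1-labelled set, below HA-Tnrc6a, and to 51.5 to 55.1 CPM in the second, above it. Neural markers summed to 67 to 68.3 CPM and 51.5 to 53.9 CPM in the Upf1-labelled sets against 82.5 to 91.1 CPM in HA-Tnrc6a inputs. Primitive streak and mesoderm markers summed to 10.4 to 10.6 CPM and 14.8 to 18 CPM against 7.31 to 9.82 CPM. Of these 6 markers only 1 passed, Eomes at 0.88 ± 0.08, and their median log2 difference was -0.04. Eomes is also in the list of trophoblast markers. Trophoblast markers overlapped HA-Tnrc6a in the first set and were at 29.2 to 33.4 CPM against 15.4 to 18.5 CPM in the second, and 7 of 8 embryonic stem cell markers passed, 2 higher and 5 lower. The part of these markers in the values of the 9 genes was not tested.

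Untagged inputs differed from HA-Tnrc6a inputs in 2 of the 9 genes, where 15.4% of all genes tested passed. Notum was at 4.87, 5.21 and 6.19 CPM and at 5.46, 5.51 and 5.48 CPM in untagged inputs, below HA-Tnrc6a in both sets, with a log2 fold change of -0.85 ± 0.10 (adjusted p = 2.42e-07). Lef1 was at 10.2, 12 and 12.3 CPM and at 1.94, 1.6 and 2.24 CPM, apart from HA-Tnrc6a in the first set and overlapping in the second. Its log2 fold change was -0.40 ± 0.12 (adjusted p = 0.0165), and the call was lost without HA-Tnrc6a input 3 or 4 or untagged input 5 (adjusted p = 0.0559, 0.113 and 0.0693) and with either set alone (adjusted p = 0.0804 and 0.136).

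The other 7 genes did not pass against untagged inputs, with log2 differences from -0.90 ± 0.33 for Sp5 (adjusted p = 0.0673) to 0.10 ± 0.07 for Axin2. With the second set alone Sp5, Tcf7l1 and Ctnnb1 passed (adjusted p = 0.0281, 0.0122 and 0.00309). Without single libraries Sp5 passed (untagged input 1 or HA-Tnrc6a input 2 left out, adjusted p = 0.0249 and 0.0437), as did Tcf7l1 (untagged input 2, adjusted p = 0.0317) and Ctnnb1 (untagged input 1, adjusted p = 0.0107). The parental line thus had less Notum RNA than the tagged line. Upf1-labelled inputs overlapped untagged inputs in Notum level in the first set and lay below them in the second. Primitive endoderm markers summed to 11.8 to 15.5 CPM in the first untagged set and 37.7 to 38.8 CPM in the second, and their part was not tested.

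Across the 24 inputs, with the mean of each set removed, the 9 genes did not form a single pattern. Pearson's r of log2 CPM with Notum was 0.77 for Lef1, 0.76 for Sp5 and 0.76 for Tcf7, but -0.20 for Axin2 and -0.66 for Ctnnb1. These points share genotypes of 6 libraries each and one scaling, so the values only describe the libraries. The genes most like Notum were Notumos (r = 0.978), Myadml2os (r = 0.978) and Ddc (r = 0.974), and those most like Lef1 were Gm43352 (r = 0.980), Mobp (r = 0.953) and Cask (r = 0.946). The best match of Sp5 was Sv2c (r = 0.902), that of Tcf7 was Atg2a (r = 0.904), that of Tcf7l1 was LTO1 (r = 0.921) and that of Ctnnb1 was Ulk4 (r = 0.879). Axin2 (Pwwp3a, r = 0.842), Tcf7l2 (Nckap1l, r = 0.741) and Nkd1 (Coro6, r = 0.685) had weaker best matches among 20170 genes.

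Recovery with tagged Tnrc6a was taken as the log2 ratio of IP to input in tagged cells less that in untagged cells. HA-Tnrc6a inputs served in choosing the genes and enter the recovery of HA-Tnrc6a cells and each comparison with it. Those tests are therefore not independent of the choice. Tcf7l2 was recovered most among the 9 genes and Ctnnb1 least. In untagged cells Tcf7l2 was at 8.25 to 9.87 CPM in first-set inputs and 8.13 to 9.69 CPM in first-set IPs. In HA-Tnrc6a cells it was at 7.42, 9.21 and 10.6 CPM in inputs and 34.1, 31.4 and 27.6 CPM in IPs of the first set, and 15.9, 18.4 and 16.3 CPM and 56.9, 47.9 and 43.3 CPM in the second. Every HA-Tnrc6a IP thus lay above every input, and the recovery was 1.72 ± 0.12 (edgeR quasi-likelihood test, adjusted p = 1.6e-14).

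Lef1 was recovered by 1.06 ± 0.21 (adjusted p = 6.83e-05), Nkd1 by 0.72 ± 0.21 (adjusted p = 0.00277) and Notum by 0.50 ± 0.13 (adjusted p = 0.0015). The values of Axin2 and Tcf7l1 were both 0.49, with SEs of 0.13 and 0.09, and that of Tcf7 was 0.29 ± 0.08 (adjusted p = 0.00128, 7.79e-06 and 0.00278). Tcf7 did not pass when libraries were scaled by their totals, at 0.13 (adjusted p = 0.212). With the first set alone Notum, Axin2, Nkd1 and Tcf7 did not pass (adjusted p = 0.28, 0.225, 0.106 and 0.253), and with the second alone Lef1 and Ctnnb1 did not (adjusted p = 0.0521 and 0.0956). Sp5 was not resolved, at 0.23 ± 0.46 (adjusted p = 0.677).

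Ctnnb1 was depleted on the beads relative to untagged cells, by -0.47 ± 0.08 (adjusted p = 4.5e-06). Its IPs were at 328, 320 and 334 CPM in HA-Tnrc6a against 501 to 589 CPM in untagged cells of the first set, and at 404, 532 and 504 CPM against 549 to 644 CPM in the second. The IPs were apart in both sets, but the recovery was -0.78 in the first set and -0.15 in the second, a difference of 0.63 ± 0.16 that did not pass (adjusted p = 0.0699). In total 8 of 9 genes passed, 7 higher and 1 lower, where 62% of all genes tested passed, 29.8% higher and 32.2% lower. The median recovery of the 9 genes was 0.49 against -0.10 for all genes, and the latter became -0.25 with scaling by library totals. With all libraries and no block, 0 of the 9 genes passed for a difference between sets by edgeR, where 0.365% of all genes tested did. Ctnnb1 passed with a replicate block (adjusted p = 0.0384), with DESeq2 (adjusted p = 0.0295), and without untagged IP 2 or 5 or HA-Tnrc6a IP 3 or 4 (adjusted p = 0.0385, 0.0425, 0.0394 and 0.00661).

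Recovery from Upf1-labelled cells over untagged cells passed for the same count, 8 of 9, where 63.6% of all genes tested passed. It was 1.72 ± 0.11 for Tcf7l2, 1.17 ± 0.32 for Lef1, 1.15 ± 0.21 for Nkd1, 1.06 ± 0.14 for Notum and 0.61 ± 0.13 for Axin2 (adjusted p = 2.03e-16, 0.00217, 1.7e-05, 5.26e-08 and 0.000128). Tcf7l1 was at 0.58 ± 0.08, Tcf7 at 0.36 ± 0.08 and Ctnnb1 at -0.44 ± 0.11, and Sp5 did not pass (adjusted p = 0.158). Tcf7 did not pass with scaling by library totals, at 0.10 (adjusted p = 0.312). With the first set alone Axin2 and Tcf7 did not pass (adjusted p = 0.531 and 0.467), and with the second alone Lef1 and Ctnnb1 did not (adjusted p = 0.292 and 0.245). Both recoveries share the untagged libraries.

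Compared directly, recovery in Upf1-labelled and HA-Tnrc6a cells differed in 1 of the 9 genes, where 4.49% of all genes tested passed. This was Notum, recovered more by 0.55 ± 0.13 (adjusted p = 0.0122), at 0.70 in the first set and 0.40 in the second. Its Upf1-labelled IPs were at 13.2, 11.3 and 14.3 CPM and at 9.18, 11.8 and 10.9 CPM, above their inputs at 3.76 to 6.53 CPM. The call was lost without HA-Tnrc6a input 2 or 5 (adjusted p = 0.0576 and 0.0541) and with either set alone (adjusted p = 0.184 and 0.257).

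Recovery in Ago2 knockout cells involves the inputs that chose the genes and is given as a description. Over untagged cells it was 1.56 ± 0.10 for Tcf7l2, 1.10 ± 0.19 for Lef1, 0.84 ± 0.14 for Axin2, 0.42 ± 0.11 for Notum and -0.41 ± 0.08 for Ctnnb1. Sp5, at 0.41 ± 0.42, and Nkd1, at 0.33 ± 0.21, had wider SEs. The sets differed for Notum, at 0.02 in the first and 0.82 in the second, and for Ctnnb1, at -0.83 and 0.01, and Notum was at 0.27 with scaling by library totals. Tcf7l1, at 0.13 ± 0.08, and Tcf7, at 0.06 ± 0.08, were nearer to 0 and turned to -0.02 and -0.09 with scaling by library totals. In this contrast 5 of 9 genes were past the threshold, where 64.7% of all genes tested were.

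Set directly against HA-Tnrc6a cells, Tcf7l1 recovery in Ago2 knockout cells differed by -0.36 ± 0.07 and Tcf7 recovery by -0.23 ± 0.07, while Axin2 recovery differed by 0.34 ± 0.10. In the first and second set Tcf7l1 was at -0.44 and -0.29, Tcf7 at -0.09 and -0.37 and Axin2 at 0.39 and 0.30. Sp5 differed by 0.18 ± 0.35, with opposite signs in the sets, -0.51 and 0.87. Nkd1 differed by -0.40 ± 0.18, Tcf7l2 by -0.16 ± 0.11, Notum by -0.09 ± 0.10, Lef1 by 0.03 ± 0.14 and Ctnnb1 by 0.05 ± 0.08. In this contrast 3 of 9 were past the threshold, where 21.3% of all genes tested were.

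**Figure D4:**
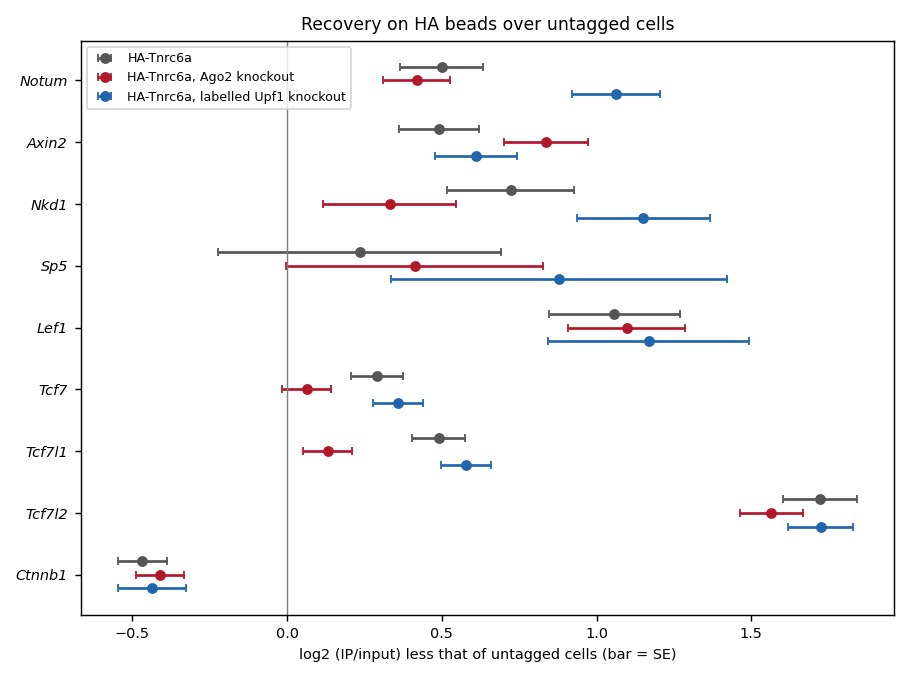
Recovery of each gene on HA beads over untagged cells (x axis, log2, mean of both sets, bars are SE) for HA-Tnrc6a, Ago2 knockout and Upf1-labelled cells, 6 inputs and 6 IPs per genotype. Tcf7l2 lay at 1.56 to 1.72 in the 3 tagged genotypes and Ctnnb1 at -0.47 to -0.41.

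Other genes of the pathway were taken from lists of ligands, receptors, inhibitors, transducers, nuclear partners, targets and Tcf7l1-repressed genes. Of 108 genes listed, 91 were in the table. In Upf1-labelled inputs 30 rose and 29 fell of 85 tested, or 69.4% against 58.6% of all genes (29.5% higher and 29% lower), which is the background for the lists that follow. The median log2 difference was -0.04 against -0.02 over all genes. Among other Wnt targets, 2 rose and 5 fell of 12 tested: Cdx1, a homeobox gene, rose by 1.25 ± 0.08 (adjusted p = 1.34e-17), while Ascl2 fell by -0.88 ± 0.12 (adjusted p = 2.67e-08). Secreted inhibitors included Sfrp2 at -1.32 ± 0.12 (adjusted p = 3.38e-13) and Wif1 at -1.71 ± 0.38 (adjusted p = 0.000153), with 3 rising and 6 falling of 13. In the ligand list 3 rose and 2 fell of 11 tested, and of 11 nuclear partners 7 rose and 3 fell. The largest log2 difference in the ligand list was 1.91, for Wnt8a.

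Receptors and transducers moved in both directions in Upf1-labelled inputs. Of 17 receptors 4 rose and 7 fell, with Lgr6, an R-spondin receptor, at -1.16 ± 0.17 (adjusted p = 5.52e-08). Of 18 genes of the transduction and destruction complex 10 rose and 4 fell, with Jup, the beta-catenin relative plakoglobin, at 0.82 ± 0.03 (adjusted p = 1.98e-27). Of 7 Tcf7l1-repressed pluripotency genes 2 rose and 3 fell, with a median log2 difference of 0.0. Klf2, a pluripotency factor, fell by -1.19 ± 0.03 (adjusted p = 7.22e-31) and Nanog was at -0.20, while Esrrb and Tfcp2l1 were at 0.16 and 0.27.

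In Ago2 knockout inputs, given as a description, 23 of 84 pathway genes were past the threshold higher and 17 lower, or 47.6% against 30.9% of all genes (15.7% higher and 15.2% lower). The ligand list had 2 higher and 2 lower of 9 tested, and the nuclear partners 2 higher and 3 lower of 11. Wnt5a, a ligand, had the highest log2 difference of the listed pathway genes, at 1.40. It did not pass the count filter in the comparison of Upf1-labelled inputs. Ccnd1, which encodes cyclin D1, was at 132 to 144 CPM against 69.1 to 75.2 CPM in the first set and 211 to 212 CPM against 129 to 130 CPM in the second, a log2 difference of 0.81 ± 0.03. Dkk1, a secreted inhibitor and Wnt target, was at 0 to 0.217 CPM against 0.655 to 1.07 CPM, a fitted log2 difference of -2.74 ± 0.39 at very low counts. Other Wnt targets were split, with 3 higher and 1 lower of 13, and had a median log2 difference of 0.04. All 7 Tcf7l1-repressed pluripotency genes had a positive sign and 5 were past the threshold higher, where 15.7% of all genes were and where 5 of 8 embryonic stem cell markers were too (Esrrb and Nanog are in both lists). They were led by Klf2 at 0.49 ± 0.03 and Tfcp2l1 at 0.29 ± 0.02.

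In the IPs of Ago2 knockout cells 34 pathway genes rose and 11 fell of 87 tested, or 51.7% against 39.7% of all genes (20.8% higher and 19% lower). The median log2 difference was 0.16 against -0.01 over all genes. The Frizzled receptor gene Fzd8 rose by 1.57 ± 0.09 (adjusted p = 1.2e-11), the R-spondin receptor gene Lgr4 by 0.74 ± 0.06 (adjusted p = 1.25e-09) and Rnf43, a ubiquitin ligase that removes Frizzled, by 0.87 ± 0.12 (adjusted p = 6.1e-06). Dkk1 fell by -1.26 ± 0.17 (adjusted p = 3.78e-06). In Ago2 knockout inputs the log2 differences of Fzd8, Lgr4, Rnf43 and Dkk1 were 0.58, 0.19, -0.31 and -2.74. Rnf43 thus went the other way in the lysates, and an IP difference mixes RNA level with recovery on the beads. In recovery with HA-Tnrc6a over untagged cells 48 rose and 12 fell of 88, or 68.2% against 62% of all genes (29.8% higher and 32.2% lower), and the median was 0.56 against -0.10 over all genes.

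**Figure D5:**
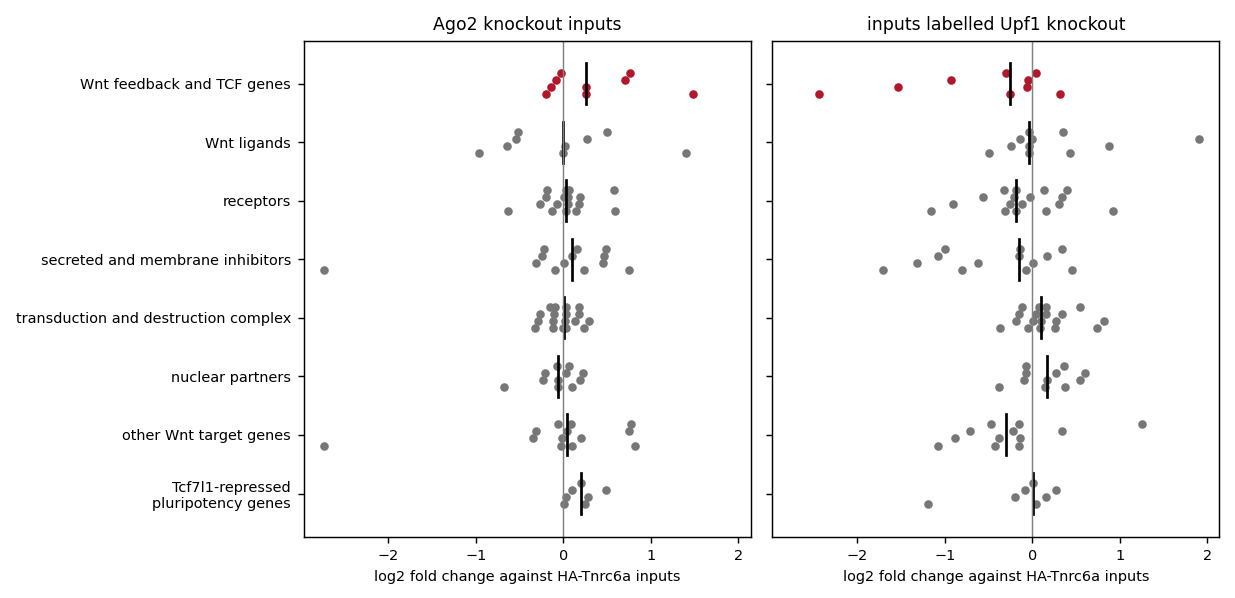
Log2 fold change against HA-Tnrc6a inputs (x axis) of every tested gene in the Wnt lists, 1 point per gene and a bar at each list's median, for Ago2 knockout inputs (left) and Upf1-labelled inputs (right). Red points are the 9 genes, whose medians were 0.26, in the contrast that chose them, and -0.25.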

How the data were processed

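RNA from inputs and HA bead IPs of 4 genotypes was sequenced in 48 libraries with a stranded total RNA kit, per the labels' protocols. The authors deposited raw read counts per gene in 1 table, which also lists the transcript length used here for levels per kilobase. STAR 2.7.3a, bcl2fastq 2.20 and the builds GRCm38 and mm10 are named in the submitters' processing notes; the counting program and its strand setting are not given in the sources used here. A further 48 per-sample columns were not used.

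The table pairs 16427 of 20171 genes with a symbol, and 3725 more were named from the reference. Columns numbered within a genotype and fraction were assigned to that group, and the first and last 3 numbers formed 2 sets. Counts were tested over all genes with edgeR 4.0.16 (TMM scaling, filterByExpr with a minimum count of 10, quasi-likelihood F-test, two-sided, Benjamini-Hochberg adjustment, threshold 0.05; R 4.3.3). The fit had 1 coefficient per genotype, fraction and set, and contrasts averaged both sets. SE is the absolute log2 fold change over the square root of F. The 9 genes, the pathway and marker lists and the tests were chosen with earlier results of these data known. From each pathway list the genes named with an adjusted p-value are among the 3 with the largest change past the threshold. Likeness is the Pearson correlation over set-centred inputs. Alternatives were RLE factors, library totals, no count filter, DESeq2 1.42.0, a replicate block, each set alone, all libraries in 1 fit, a 2-fold minimum and leaving out each library. Replicate pairs differed by more than sampling noise (chi-square per degree of freedom 1.96 to 36.2 over 48 pairs), so none was merged. The fitting steps were tested on simulated data.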

Additional observations from a re-analysis of the deposited data

Results flagged for a closer look

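The change of 4 genes in Upf1-labelled inputs against HA-Tnrc6a inputs differed between the library sets by a test of the difference itself (edgeR quasi-likelihood test; second set less first). The difference was -2.74 ± 0.35 (SE, log2) for Lef1, -0.75 ± 0.19 for Notum, -0.34 ± 0.07 for Tcf7 and 0.16 ± 0.05 for Ctnnb1, whose call was lost with scaling by library totals, with all 48 libraries in 1 fit and without any of 4 single libraries. Lef1 was lower in the second set in every genotype, at 1.89 to 3.34 CPM against 14.1 to 16.8 CPM in HA-Tnrc6a inputs.

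A single library stood apart from the other 5 of its group in 3 of 72 groups of 6 libraries. This is not more often than the about 1 in 20 that chance alone gives among like samples. The groups pool both library sets, so that rate may not hold here. All 3 flagged libraries concerned Sp5, the gene with the lowest counts: untagged input 1 was at 0.731 CPM (the next at 0.354), untagged IP 2 at 1.07 CPM (the next at 0.486) and Upf1-labelled IP 2 at 1.52 CPM (the next at 0.688).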

How the results depend on the processing

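With a 2-fold minimum the number of the 9 genes past the threshold went from 5 to 2 in Upf1-labelled inputs, 2 to 0 in untagged inputs, 6 to 1 in Ago2 knockout inputs and 5 to 1 in their IPs. Recovery counts went from 8 to 2 for HA-Tnrc6a, 8 to 4 for Upf1-labelled and 5 to 2 for Ago2 knockout cells over untagged cells. Against HA-Tnrc6a cells they went from 1 to 0 (Upf1-labelled) and 3 to 0 (Ago2 knockout), and the set difference in Upf1-labelled inputs from 4 to 1. With the first set alone the counts were 1 for untagged inputs, 4 for HA-Tnrc6a recovery, and 0 and 1 for the recoveries of Upf1-labelled and Ago2 knockout cells against HA-Tnrc6a cells. With the second set alone they were 8 for Upf1-labelled inputs, 4 for untagged inputs, 3 for Ago2 knockout IPs and 0 for recovery of Upf1-labelled against HA-Tnrc6a cells. In the first set alone Tcf7 turned to 0.13 in Upf1-labelled inputs (adjusted p = 0.0309) and Axin2 to 0.0378 in Ago2 knockout inputs. Set differences have no value in 1 set. Leaving out 1 library at a time gave 5 to 6 in Upf1-labelled inputs, 1 to 4 in untagged inputs, 4 to 6 in Ago2 knockout inputs, 4 to 6 in IPs, 0 to 1 in recovery of Upf1-labelled against HA-Tnrc6a cells and 0 to 1 in the set difference of HA-Tnrc6a recovery.

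Equal library numbers gave little sign of paired samples: over 168 same-number pairs of different groups the mean correlation of deviations was 0.01. Over the 24 pairs of input and IP of the same genotype and number it was 0.02, and the highest was 0.17. Low correlations of such deviations cannot show that samples were unpaired. With a replicate block 6 genes passed in Upf1-labelled inputs (Nkd1 added, adjusted p = 0.0335), and 1 in the set difference of HA-Tnrc6a recovery (Ctnnb1, adjusted p = 0.0384), as with DESeq2 (1, adjusted p = 0.0295). The causes were not tested. Of all genes past the threshold in recovery of Upf1-labelled against HA-Tnrc6a cells, 65.1% were higher with TMM, 52.8% with RLE factors and 22.4% with library totals. For recovery over untagged cells, the median of all genes moved from -0.06 to -0.32 with library totals in Upf1-labelled cells and from -0.07 to -0.22 in Ago2 knockout cells. In the former, higher calls made up 50% with TMM and 36.4% with library totals. Low counts limit Sp5 and second-set Lef1.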

Other observations

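The annotated neighbours of Notum and Lef1 were chosen after values were seen. They are the nearest reference genes on either side that also had a row in the count table. Nearer transcripts without such a match are not covered. In Ago2 knockout inputs the 10 nearest reference genes of Notum on chromosome 11 differed from HA-Tnrc6a inputs by -0.28 to 0.37 on the log2 scale (median -0.01), with Aspscr1 highest at 0.37 ± 0.03. In Upf1-labelled inputs they differed by -0.73 to 0.21, with Rac3 lowest at -0.73 ± 0.10 (edgeR quasi-likelihood test, adjusted p = 5.62e-09). The 10 nearest reference genes of Lef1 differed by -0.17 to 0.20 in Ago2 knockout inputs and by -1.57 to 0.40 in Upf1-labelled inputs, with Col25a1 lowest at -1.57 ± 0.42 (adjusted p = 0.00134).

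These neighbours do not include Notumos, Myadml2os and Gm43352, which were selected as most like Notum or Lef1 across these inputs, so their values restate that choice and are given without a test. Their distance from Notum or Lef1 is not given here. Notumos differed by 1.43 ± 0.14 in Ago2 knockout and -1.11 ± 0.15 in Upf1-labelled inputs, Myadml2os by 1.27 ± 0.15 and -1.10 ± 0.21, and Gm43352 by 0.66 ± 0.15 and -2.43 ± 0.27. Notumos is by its name an opposite-strand transcript of Notum, although the reference used here listed no gene overlapping Notum. Without the strand setting of the counting, whether reads of the pair are shared cannot be told.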
